A study of Mus musculus with 6 samples.

Results

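Interferon-induced genes are the genes that cells switch on when an interferon binds its receptor. A set of 43 such genes was followed across 6 single-cell RNA-seq libraries of cells sorted from mouse hearts. Genes were matched by symbol to the rows of the count matrix, and 42 of the 43 were found among 31055 rows. Mx2 has no row in the gene table and is not analysed here. The 42 genes fall into 29 genes best known as targets of type I interferon (Ifit, Oas and Ifi genes, Isg15, Rsad2, Mx1 and others) and 13 genes that respond strongly to type II interferon. The latter group holds the guanylate-binding proteins Gbp2 to Gbp7, the immunity-related GTPases Iigp1, Igtp, Irgm1 and Irgm2, the transcription factor Irf1, and the immunoproteasome subunits Psmb8 and Psmb9.

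All mice were C57BL/6, aged 3 to 6 months, and all carried Wt1CreERT2, an inducible Cre made where the epicardial gene Wt1 is active, together with Rosa26mTmG, a reporter that switches from membrane Tomato to membrane EGFP after Cre has acted. The 3 control libraries came from Wt1CreERT2:Rosa26mTmG mice. The 3 Dsp_het libraries came from Wt1CreERT2:Rosa26mTmG:DspW/F mice, which also carry a conditional allele of Dsp, the gene of the desmosomal protein desmoplakin, and serve as a model of arrhythmogenic cardiomyopathy. Whole hearts were digested with collagenase II, cardiac myocytes were set aside, and EGFP-positive cells were sorted and counted with 10x Genomics 3′ chemistry. The labels do not say whether a library is 1 animal, and the induction schedule is not given in the sources used here, so p-values measure only the spread between these libraries. The allele is recombined only where the Wt1-driven Cre was active.

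Interferons are secreted when a cell senses viral nucleic acid or its own misplaced DNA or RNA. Type I interferons bind the Ifnar1 and Ifnar2 receptor, whose kinases Jak1 and Tyk2 activate a complex with Stat2 and Irf9 that binds interferon-stimulated response elements. Type II interferon, Ifng, binds Ifngr1 and Ifngr2 and acts on gamma-activated sites, and one of the genes it switches on is Irf1. The products degrade viral RNA, block translation, trap virus particles, attack the vacuoles of intracellular pathogens or widen antigen presentation, and a capillary subset that carries many of them is known from heart endothelium.

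The promoters of 8 members are shown because they hold the motifs through which both branches act. RefSeq start sites on GRCm38.p6 were available for 32 of the 43 members, and the 250 bases before each start were searched on both strands. The motif GAAANNGAAA (TTTCNNTTTC on the other strand), the core of an interferon-stimulated response element, was found in 16 of the 32 members (50%) and in 936 of 27025 genes (3.46%). The motif TTCNNNGAA, the core of a gamma-activated site, was found in 11 of the 32 members (34.4%) and in 2197 of the 27025 genes (8.13%). Among the GTPase group, 7 of 10 held the first and 6 of 10 the second, against 9 of 22 and 5 of 22 of the type I group. Each sequence reads 5′ to 3′ towards the start site, and capitals mark every match to either motif. Isg15 (chr4:156200819-156201068, minus strand) holds 3 overlapping matches to GAAANNGAAA. Ifit1 (chr19:34640744-34640870, plus), of which only the 127 bases outside annotated exons are shown, Ifit3 (chr19:34583279-34583528, plus) and Ifit3b (chr19:34607707-34607956, plus) hold 2 matches each. Rsad2 (chr12:26456453-26456702, minus) holds 1. Igtp (chr11:58199306-58199555, plus) and Irgm2 (chr11:58214727-58214976, plus) hold a match to TTCNNNGAA 2 bases before a match to GAAANNGAAA. Irf1 (chr11:53769764-53770013, plus) holds TTCNNNGAA only.
Isg15: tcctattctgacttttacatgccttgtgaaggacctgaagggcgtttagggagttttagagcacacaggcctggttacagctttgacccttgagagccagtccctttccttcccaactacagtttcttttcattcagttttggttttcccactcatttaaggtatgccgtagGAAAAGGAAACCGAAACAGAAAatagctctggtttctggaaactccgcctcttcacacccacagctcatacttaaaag
Ifit1: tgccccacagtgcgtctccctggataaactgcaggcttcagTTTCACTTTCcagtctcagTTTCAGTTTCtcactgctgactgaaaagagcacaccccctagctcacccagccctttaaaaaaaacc
Ifit3: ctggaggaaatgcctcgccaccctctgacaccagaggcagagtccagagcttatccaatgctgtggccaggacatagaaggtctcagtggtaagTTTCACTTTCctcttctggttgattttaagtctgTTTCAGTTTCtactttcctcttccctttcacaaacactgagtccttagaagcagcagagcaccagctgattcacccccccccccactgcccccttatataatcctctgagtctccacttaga
Ifit3b: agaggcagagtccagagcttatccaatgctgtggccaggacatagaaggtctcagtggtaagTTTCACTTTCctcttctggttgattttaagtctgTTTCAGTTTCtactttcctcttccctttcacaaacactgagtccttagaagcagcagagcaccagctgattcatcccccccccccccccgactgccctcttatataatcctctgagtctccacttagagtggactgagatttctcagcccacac
Rsad2: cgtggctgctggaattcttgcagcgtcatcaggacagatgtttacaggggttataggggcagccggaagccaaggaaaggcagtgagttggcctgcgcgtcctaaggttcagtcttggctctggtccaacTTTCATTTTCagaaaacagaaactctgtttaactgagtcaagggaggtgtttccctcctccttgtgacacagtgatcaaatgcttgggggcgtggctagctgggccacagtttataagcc
Igtp: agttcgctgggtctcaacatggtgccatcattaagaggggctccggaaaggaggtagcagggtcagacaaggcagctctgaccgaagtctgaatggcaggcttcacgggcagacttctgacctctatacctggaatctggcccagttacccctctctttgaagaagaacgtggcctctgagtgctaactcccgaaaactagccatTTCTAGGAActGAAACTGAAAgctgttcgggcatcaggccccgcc
Irgm2: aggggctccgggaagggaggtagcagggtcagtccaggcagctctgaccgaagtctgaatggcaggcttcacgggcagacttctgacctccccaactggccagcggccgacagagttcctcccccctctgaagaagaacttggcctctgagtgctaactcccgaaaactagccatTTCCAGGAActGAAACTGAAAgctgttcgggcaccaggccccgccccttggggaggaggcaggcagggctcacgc
Irf1: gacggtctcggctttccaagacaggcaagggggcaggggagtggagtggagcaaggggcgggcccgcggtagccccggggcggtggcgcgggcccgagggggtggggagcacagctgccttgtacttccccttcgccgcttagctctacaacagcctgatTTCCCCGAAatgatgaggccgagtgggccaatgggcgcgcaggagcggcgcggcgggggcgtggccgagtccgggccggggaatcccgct
Ifit3 and Ifit3b are near copies: 188 of 218 aligned promoter bases are identical (86.2%), and their transcripts are near-identical too, so the split of UMIs between them is uncertain. The annotation of Irgm2 overlaps that of Igtp, with the same consequence. A match describes letters in the window and not a bound site.

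The libraries held 7573157 to 17083660 UMIs, and 16338 of 18283 barcodes passed the filters. Of 13183 distinct barcodes, 1689 occurred in several libraries. Occurrences outside the library with most UMIs of that barcode made up 17.4% to 25.6% of barcodes in 4 libraries, and 41.7% and 49.0% in Dsp_het 2 and 3. They were left out, which kept 12661 cells, and values with all kept barcodes are given where they differ. Cells were clustered without the interferon genes, and classes were named by markers: 8648 endothelial-like, 1177 fibroblast-like, 641 epicardial-like, 204 macrophage-like and 202 pericyte-like cells. The sort is labelled as epicardial derived, yet endothelial-like cells made up 62.5% to 77.7% of each library. Dsp was held by 11 to 32 UMIs a library, 13, 15 and 32 in the controls and 16, 11 and 31 in Dsp_het. In epicardial-like cells it was at 17.8, 19.9 and 17.2 CPM in the controls and 7.2, 7.2 and 9.8 in Dsp_het. These groups did not overlap, but they rest on 6, 7 and 18 UMIs against 14, 6 and 16, and no test was made. In endothelial-like and fibroblast-like cells, at 0 to 9 UMIs a library, the groups overlapped. Whether the counted 3′ end lies in the deleted stretch is not given in the sources used here.

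More members had their highest median level in endothelial-like cells than in any other class. Of the 42 genes, 23 had their highest median level in endothelial-like cells, 7 in epicardial-like, 6 in macrophage-like, 6 in pericyte-like and 0 in fibroblast-like cells. For only 3 of these 23 did every endothelial-like library lie above every library of the next class. The share of all genes was not counted for either number. Levels are UMIs of a gene summed over the cells of a class in a library and scaled by all UMIs of those cells (CPM), and medians run over 6 libraries, or over the 4 libraries with at least 20 cells for macrophage-like and pericyte-like cells. Every endothelial-like library lay above every fibroblast-like library for 34 genes and below for 3 (Isg20, Ifi27l2a and Ifi204). Of all 13565 genes with enough UMIs, 25.6% were higher and 18.3% lower in that way. The median ratio of class means was 3.90 for the members and 1.13 for all genes. All 13 genes of the GTPase group were higher, as were 21 of the 29 type I genes. These class levels are a description, since other genes chose the cells and no test was made.

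The antiviral enzyme viperin, Rsad2, which makes a nucleotide analogue that ends viral RNA chains, showed the widest gap among the abundant members. Its level in endothelial-like cells was 253 CPM in the lowest library, 280 in the median and 313 in the highest. Fibroblast-like cells held 1.49, 4.25 and 6.20 CPM, a median ratio of 65.8. The ranges lay far apart, and the endothelial-like libraries differed little among themselves. Gbp4, a guanylate-binding protein, gave 43.9 as its ratio of medians between the same classes, with fibroblast-like cells at a median of 2.47 CPM.

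The most abundant member by 3′ counts was Bst2, or tetherin, which anchors budding virus to the cell surface. Endothelial-like cells held 677, 845 and 867 CPM in the controls and 856, 503 and 480 in Dsp_het, with Dsp_het 1 among the high libraries and Dsp_het 2 and 3 the lowest. Epicardial-like cells held more, 672 to 2798 CPM with a median of 1530, and fibroblast-like cells a median of 193. The DNA-binding Ifi200 family protein Ifi203 followed, with medians of 100, 104 and 222 CPM in fibroblast-like, epicardial-like and macrophage-like cells against 363 to 585 CPM in endothelial-like libraries.

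The immunoproteasome subunits Psmb8 and Psmb9 trim peptides for class I presentation. Psmb8 lay at 433 to 526 CPM in the endothelial-like libraries, against medians of 109 in fibroblast-like, 130 in epicardial-like and 404 in macrophage-like cells. Psmb9 lay at 257 to 309 CPM, and its medians elsewhere were 33.5, 99.5 and 185. Psmb9, Irf1 and Stat2 were the 3 members with every endothelial-like library above every library of the next class. Irf1 lay at 145 to 191 CPM in endothelial-like cells, and its medians were 42.4, 55.7 and 64.6 CPM in fibroblast-like, epicardial-like and macrophage-like cells.

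Among the GTPases that attack pathogen vacuoles, Iigp1 was the most abundant in endothelial-like cells, at 433, 412 and 284 CPM in the controls and 287, 213 and 316 in Dsp_het. Its medians were 31.1, 93.5 and 64.2 CPM in fibroblast-like, epicardial-like and macrophage-like cells. Gbp7 ran at 202 to 273 CPM in endothelial-like cells against medians of 37.7, 85.8 and 76.7. Gbp2 was highest in epicardial-like cells, with a median of 215 CPM, while endothelial-like libraries held 92.3 to 145. Gbp6 and Irgm2 also had their highest medians there, at 9.17 and 40.6 CPM.

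Isg15, a ubiquitin-like protein coupled to other proteins, was at 112 to 218 CPM in endothelial-like cells, with a median of 111 in epicardial-like and 40.2 in fibroblast-like cells. Xaf1, a pro-apoptotic protein, ran at 151 to 201 CPM, and the ADP-ribosyltransferase Parp14 at 122 to 156. The RNA-binding proteins Ifit1 and Ifit3 were lower, at 49.8 to 77.5 and 32.6 to 69.0 CPM, as was Irf7, the factor that amplifies type I interferon production, at 44.0 to 86.9. Their spread between libraries was wider, in proportion, than that of Rsad2 or Psmb9.

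A smaller set of genes went the other way. Ifi27l2a, a small membrane protein of the Ifi27 family, had medians of 922 CPM in fibroblast-like, 1184 in epicardial-like and 2069 in macrophage-like cells, and 39.7 in endothelial-like cells. It was the highest member in fibroblast-like and in macrophage-like cells. Ifi204, another Ifi200 family protein, had medians of 128 CPM in macrophage-like and 21.4 in endothelial-like cells, and the macrophage-like libraries lay above every library of the next class. Oasl2, an oligoadenylate synthetase-like protein, was highest in epicardial-like cells, at a median of 183 CPM against 21.4 in fibroblast-like cells, and there too the ranges of the highest and the next class did not overlap. Macrophage markers summed to 5.70 to 172 CPM in the endothelial-like libraries and T or NK cell markers to at most 1.46, and their part in the levels was not tested.

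**Figure D1:**
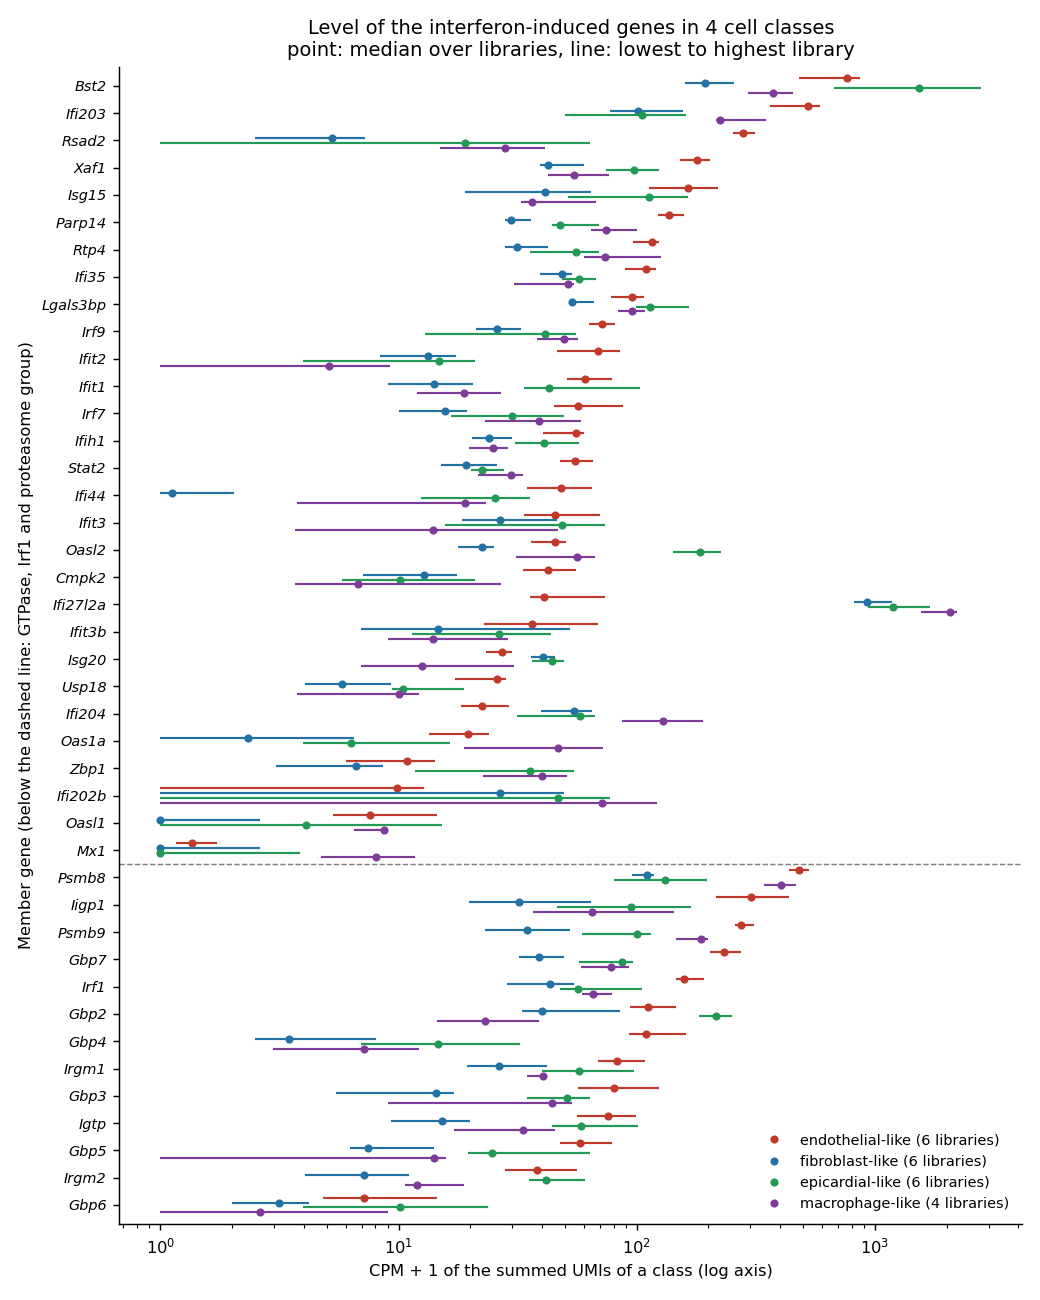
Level of each interferon-induced gene in 4 cell classes, as the median over libraries (point) and the lowest and highest library (line), in CPM plus 1 on a log axis. Endothelial-like cells lie to the right of fibroblast-like cells for most genes, with Rsad2 at a median of 280 against 4.25 CPM, while Ifi27l2a runs the other way.

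Against epicardial-like cells the difference was smaller. Of the 41 genes with enough UMIs, 16 were higher in every endothelial-like library and 5 lower, against 21.5% and 18.1% of 13558 genes. The median ratio was 1.80 for the members and 1.08 for all genes. Summed over all members, endothelial-like libraries held 4242 to 5915 CPM, epicardial-like 3933 to 5795, macrophage-like 4134 to 5121, pericyte-like 3349 to 6228 and fibroblast-like 1967 to 2498. The sums of 12 core antiviral genes (Ifit1, Ifit2, Ifit3, Ifit3b, Isg15, Rsad2, Oasl1, Oasl2, Usp18, Cmpk2, Irf7 and Mx1) were 715 to 1021 CPM in endothelial-like cells, 363 to 746 in epicardial-like, 186 to 300 in macrophage-like and 125 to 260 in fibroblast-like cells. Pericyte-like libraries held 590 to 1854 CPM of them, a range that spans that of the endothelial-like libraries. Endothelial markers summed to 12924 to 23616 CPM in the pericyte-like libraries. They summed to 35060 to 42894 CPM in endothelial-like and 1154 to 2361 in epicardial-like libraries. The part of endothelial RNA in the pericyte-like levels was not tested.

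The endothelial-like cells formed 9 clusters, of which 2, here called 3 and 5, were capillary-like (Car4, Rgcc, Timp4), cluster 2 was arterial-like (Fbln5, Gja4, Hey1) and cluster 12 was venous-like (Vwf, Mgp, Cytl1). Cluster 6 was led by stress and immediate-early genes (Egr1, Junb, Hspa1a). The others stayed unnamed, among them cluster 0, led by Btnl9, Efnb2 and Kdr, and cluster 8, led by Nr2f2, Vcam1 and Prss23. Cluster 12 held the lowest sum of members of the 9 clusters. In cluster 8, with its venous markers Nr2f2 and Vcam1, all members summed to 3727 to 6000 CPM. The sum over all members was 2427 to 3362 CPM in cluster 12 and 5087 to 7381 in cluster 0, and the core gene sums were 185 to 391 and 855 to 1290 CPM, with no overlap in either. Markers of other cells moved with this: fibroblast markers summed to 3617 to 8034 CPM in cluster 12 and 80 to 251 in cluster 0, and endothelial markers to 16984 to 23521 and 39464 to 43865. Macrophage markers in cluster 12 reached 1236 CPM in Dsp_het 3. Their part in the low levels was not tested.

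Rsad2 divided the subtypes most clearly. It stood at 441, 561 and 481 CPM in the controls and 350, 477 and 445 in Dsp_het in cluster 0, and at 28.9, 5.5 and 18.3 against 13.3, 10.5 and 9.8 in the venous-like cluster. Cluster 8 lay between, at a median of 119 CPM, below the arterial-like cluster at 202, the capillary-like clusters at 302 and 411, and the rest at 291 to 388. Ifi203 had the same ends, with medians of 842 CPM in cluster 0, 111 in the venous-like cluster and 444 to 594 in the others.

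Other members had another order. Iigp1 was highest in cluster 8, at a median of 520 CPM, followed by cluster 0 at 364, and lowest in the venous-like cluster at 163. Psmb8 was also highest in cluster 8, at 591 CPM, and lowest in cluster 4, at 278. Bst2 ranged only from 496 CPM in the venous-like to 929 in the arterial-like cluster, and Isg15 from 64.4 to 256 in the same clusters. Venous-like cells were thus far lower in Rsad2 than in Bst2 or Iigp1.

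Interferon transcripts themselves were nearly absent. No UMI was counted for Ifnb1 or for any listed Ifna gene, Ifnk, Ifne or the Ifnl genes, which allows up to 3 UMIs of each over the 6 libraries. Ifng gave 27 UMIs in all, 26 of them in T or NK-like cells. The receptors were present in every class: in endothelial-like cells the medians were 49.5 CPM for Ifnar1, 155 for Ifnar2, 324 for Ifngr1 and 41.1 for Ifngr2, with the kinases Jak1 at 185 and Tyk2 at 18.4. In fibroblast-like cells the medians were 26.9 CPM for Ifnar1, 156 for Ifnar2 and 305 for Ifngr1. Cxcl10, a chemokine that is a strong target of interferon, was low throughout, at medians of 3.09 CPM in endothelial-like and 15.6 in epicardial-like cells.

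Related lists showed the same division by different amounts. Of 108 other interferon-induced genes, 70 were higher and 8 lower in every endothelial-like than in every fibroblast-like library, with a median ratio of 2.75. Of 17 antigen presentation genes, 14 were higher and 2 lower, with a median ratio of 2.79. Of 20 receptor and signalling genes 9 were higher and 4 lower, and of 17 nucleic acid sensors 8 were higher and 1 lower.

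The response was uneven from cell to cell. A cell was called responding when, after thinning to 2000 UMIs, it held UMIs of at least 3 different core genes. Among endothelial-like cells 929 of 7693 responded, 12.1% (exact 95% interval 11.4% to 12.8%, counting error only), and 955 shallower cells were left out. The shares were 11.0%, 16% and 11.5% in control 1, 2 and 3 and 14.9%, 9.84% and 8.40% in Dsp_het 1, 2 and 3. The highest shares were those of control 2 and Dsp_het 1, and the groups overlapped. The group means were 12.8% ± 2.77 and 11.1% ± 3.44 (SD, n = 3 each), 1.75 percentage points apart, with Dsp_het lower. Without control 2 the difference was -0.16 points and without Dsp_het 1 it was -3.69. Without thinning it was 0.18, when the shares were 22.9% and 23.1%. Over all libraries the share of 12.1% rested on the cut-off and the depth chosen. It was 24.6% with at least 2 core genes and 6.81% with at least 4. Thinned to 1000 and to 4000 UMIs it was 5.92% and 21.2%.

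Responding cells were scarce among fibroblast-like cells, 10 of 1150 (0.870%, exact 95% interval 0.418% to 1.59%), although these were deeper, with a median of 7561 UMIs against 3852 in endothelial-like cells. Epicardial-like cells gave 34 of 558 (6.09%), pericyte-like cells 16 of 177 (9.04%), and macrophage-like cells 2 of 199 (1.01%). No responding cell was found among 35 T or NK-like cells, for which the upper exact limit is 10.0%. Among endothelial clusters the share ran from 15.8% in cluster 0 and 15.3% in the arterial-like cluster to 2.58% in the venous-like cluster, where 8 of 310 cells responded.

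**Figure D2:**
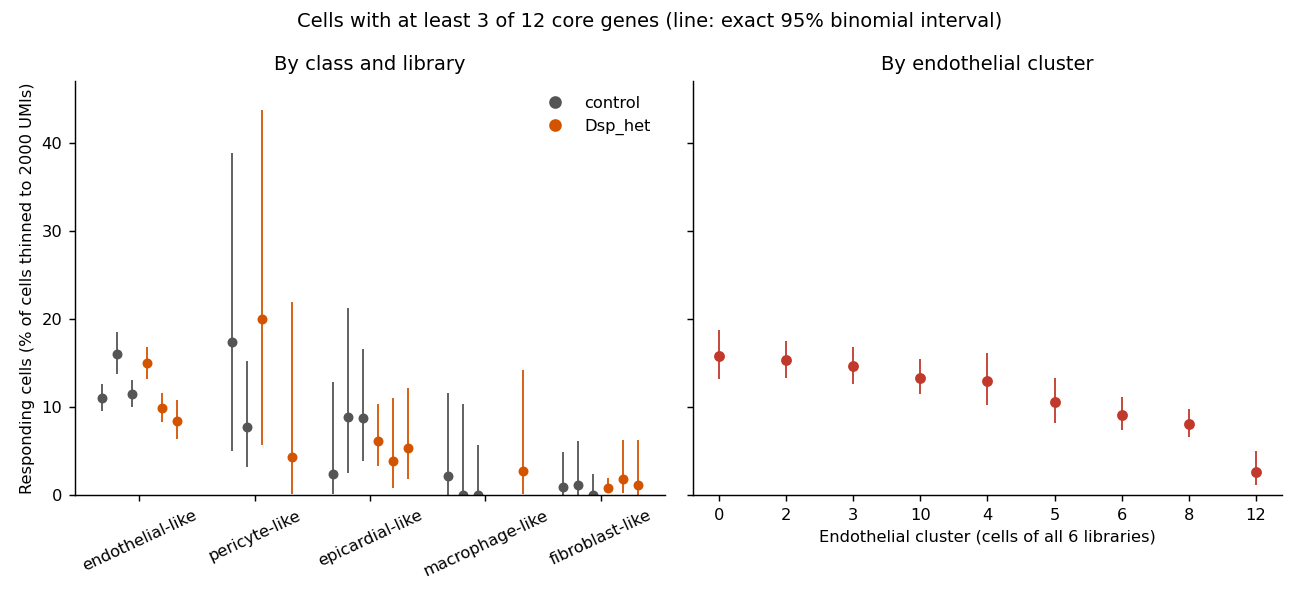
Share of cells with at least 3 core genes after thinning to 2000 UMIs, by class and library (left) and by endothelial cluster (right), in percent with exact 95% intervals that cover counting error only. Endothelial-like libraries lie between 8.40% and 16% in both genotypes, fibroblast-like libraries at or below 1.79%, and the venous-like cluster 12 is the lowest of the endothelial clusters.

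The number of core genes per endothelial-like cell tapered, with 3252 cells (42.3%) at 0, 2551 (33.2%) at 1, 961 (12.5%) at 2, 405 (5.26%) at 3 and 197 (2.56%) at 4, and a maximum of 10. The remaining genes climbed along this scale without having defined it. The GTPase group summed to 1752, 1969, 2310, 2870, 3396 and 4569 CPM in cells with 0, 1, 2, 3, 4 and at least 5 core genes. The other type I genes summed to 1737, 2080, 2574, 3519, 4495 and 6180 CPM in the same cells. Core genes differed in how far they were confined to responding cells, which held 75.9% of all Ifit1 UMIs, 65.2% of those of Isg15 and 34.7% of those of Rsad2. Rsad2 was found in 25% of the other endothelial-like cells.

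Members outside the core set were compared between responding and other endothelial-like cells library by library. Of the 17 other type I genes, 16 were higher in responding cells in all 6 libraries, as were 11 of the 13 genes of the GTPase group, against 104 of 2993 genes outside the lists (3.47%). The median folds were 2.71, 2.11 and 1.00. Ifi44, an antiviral protein, was at 193 CPM in responding and 30.5 in other cells (6.31-fold), and Rtp4, a chaperone of receptors, at 357 and 80.2 (4.45-fold). Parp14 differed 2.72-fold, Stat2 2.71-fold, Xaf1 2.25-fold, Ifi203 2.13-fold and Bst2 1.99-fold, and Ifi204 3.17-fold from a low level of 18.5 CPM. Ifi202b was higher in 5 of 6 libraries.

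In the GTPase group Igtp was at 180 CPM in responding and 60.3 in other cells (2.99-fold), and Irgm1 differed 3.06-fold. Iigp1 was at 830, 790 and 644 CPM in responding cells of the controls against 414, 358 and 240 in their other cells. In Dsp_het it was at 528, 324 and 429 against 245, 207 and 309. Responding cells were thus higher in each library, and Dsp_het 3 showed the smallest ratio. Gbp2 and Gbp4 differed 1.75-fold and 1.90-fold, and Psmb8 and Psmb9 1.57-fold and 1.24-fold. Irf1 was higher in 5 of 6 libraries, with Dsp_het 3 at 98.2 CPM in responding and 150 in other cells.

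**Figure D3:**
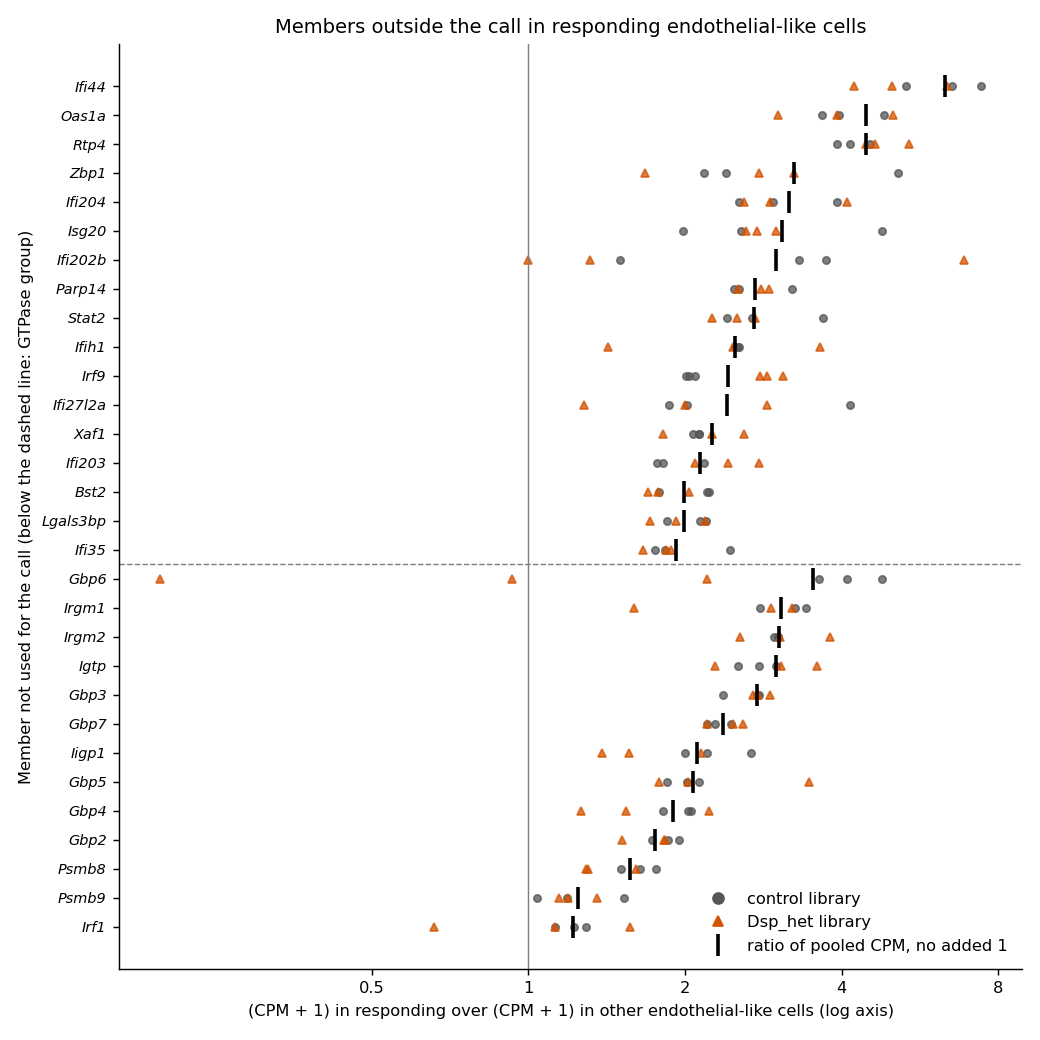
Ratio of CPM plus 1 in responding to other endothelial-like cells for members outside the core set, one point per library, with the ratio over all libraries as a black bar. Most points lie above 1, and Irf1 in Dsp_het 3 lies below it.

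Receptor transcripts had ratios near 1. Ifnar1, Ifnar2 and Ifngr1 differed by factors of 1.16, 1.00 and 1.04, and Jak1 and Tyk2 by 1.11 and 0.809. Of 80 other induced genes 49 were higher in all 6 libraries (median fold 1.90), of 17 antigen presentation genes 9 (1.21) and of 16 sensors 5 (1.42). Cxcl10 was at 11.8 and 2.00 CPM from 22 and 27 UMIs.

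Genes in none of the lists that were higher in responding cells of every library were led by Ifi208, an Ifi200 family gene, at 58.1 and 13.7 CPM (4.25-fold). It was followed by Mitd1 (2.30-fold), Trafd1 (2.14-fold), Zc3hav1 (1.96-fold), Gm4070 (1.89-fold), Rnf114 (1.82-fold), Ogfr (1.78-fold), Agrn (1.71-fold), Clec2d (1.61-fold) and Gch1 (1.60-fold). Zc3hav1 encodes an RNA-binding protein that directs viral RNA to decay, and Trafd1 a feedback regulator of innate signalling.

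When the interferon genes took part in clustering, a cluster of 432 endothelial-like cells led by Ifit1, Isg15, Ifit3 and Ifit2 appeared. It held 5.64%, 3.90% and 3.76% of endothelial-like cells in the controls and 3.84%, 4.98% and 10.4% in Dsp_het, with Dsp_het 3 the highest and the other libraries overlapping. The share of responding cells, by contrast, was lowest in Dsp_het 3. The cluster held 156 of the 929 responding cells counted above (16.8%). Of all its 396 cells with at least 2000 UMIs, including those in clusters left unnamed when the interferon genes were set aside, 45.7% responded. Clustered without the interferon genes, its cells were spread over 8 of the 9 endothelial clusters and some unnamed clusters, with 0 in the venous-like cluster.

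By genotype, no member passed the test in the sum of all cells, although most were lower in Dsp_het. With edgeR's quasi-likelihood test and Benjamini-Hochberg adjustment, 0 of 12996 genes were called at an adjusted p under 0.05 (0%). Of the 41 members tested, 36 had a negative fold change, with a median log2 fold change of -0.29 against -0.01 for all genes, of which 52.3% were negative. Every Dsp_het library lay below every control library for 15 members and above for 1, Oasl2, against 7.65% and 10.5% of all genes. An unadjusted p under 0.05 was reached by 14 of the 41 members and by 12.6% of all genes. Without control 3, 25 members lay apart in this way in the lower direction, and 18 had an unadjusted p under 0.05. Without control 2, 4 members had such a p, and 9 without Dsp_het 3. The shares of all genes were not counted for these smaller sets of libraries, so the numbers show only that the counts depend on the libraries.

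Values in the genotype comparisons are CPM scaled by TMM factors. Iigp1 was at 351, 331 and 237 CPM in the controls and 197, 181 and 209 in Dsp_het (log2 fold change -0.65, SE 0.16, adjusted p = 0.205). Every Dsp_het library lay below the lowest control, control 3. Ifi203 was at 494, 438 and 436 CPM against 355, 338 and 283 (log2 fold change -0.49, adjusted p = 0.207), and Gbp3 at 84.6, 104 and 71.0 against 55.8, 49.8 and 63.7 (-0.61, adjusted p = 0.210). Neither pair of groups overlapped. By DESeq2 the same genes had adjusted p-values of 0.011, 0.0201 and 0.0381, among 383 genes called. Psmb8 was at 449, 442 and 418 CPM against 322, 364 and 349 (-0.34, adjusted p = 0.267). Ifi27l2a had a positive fold change, at 276, 288 and 326 CPM against 590, 282 and 438, with Dsp_het 2 inside the control range.

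The mix of cells moved with these sums. Fibroblast-like cells made up 4.75%, 5.93% and 5.60% of the control libraries and 20.4%, 6.48% and 8.35% of Dsp_het, and epicardial-like cells 1.96%, 3.09% and 3.40% against 8.29%, 4.45% and 11.5%. Cells of unnamed clusters went the other way, at 13.953%, 19.294% and 22.175% of the control libraries and 7.415%, 9.183% and 7.129% of Dsp_het. In these unnamed cells all members summed to 4376 to 5741 CPM and endothelial markers to 35621 to 40521 CPM. In the sum of all cells, 14 of 14 fibroblast markers (7195 to 9181 CPM in controls, 9471 to 24920 in Dsp_het) and 15 of 15 epicardial markers (933 to 1285 against 2038 to 3415) had positive fold changes. Of the endothelial markers 14 of 15, and of the macrophage markers 13 of 13, had negative ones. Their part in the all-cell values was not tested, and the comparisons within classes follow.

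Within endothelial-like cells the difference was smaller. No gene of 11291 was called by edgeR (0%), and DESeq2 called 0 members. Of 41 members 35 had a negative fold change, with a median of -0.14 against 0.00 for all genes, and 4 reached an unadjusted p under 0.05 (4.08% of all genes). Every Dsp_het library lay below every control library for 4 members, Gbp6, Irgm1, Psmb8 and Psmb9, against 4.07% of all genes. This count rested on the libraries used: it was 16 without Dsp_het 1, 15 without control 3, 7 without Dsp_het 3 and 6 without control 2. The number with an unadjusted p under 0.05 was 13 without Dsp_het 1 and 0 without control 2 or Dsp_het 2. For these smaller sets of libraries the shares of all genes were not counted, so such counts cannot be set against a background. The median fold change was -0.28 without Dsp_het 1 and -0.08 without Dsp_het 2. All 13 genes of the GTPase group had negative fold changes, with a median of -0.26, and this held without any single library.

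Iigp1 was at 418, 403 and 300 CPM in the endothelial-like cells of the controls (374 ± 64.2, SD, n = 3) and at 291, 215 and 314 in Dsp_het (273 ± 51.6). Dsp_het 3 lay above control 3, and the log2 fold change was -0.45 with an adjusted p of 0.998 by edgeR. Psmb9 was at 298, 289 and 287 CPM against 278, 259 and 270 (-0.12), apart but close, and Irgm1 at 84.8, 105 and 85.5 against 83.5, 68.1 and 77.9 (-0.26). Among the type I genes, Isg15 was at 129, 213 and 207 CPM against 195, 113 and 121, and Bst2 at 653, 828 and 917 against 867, 507 and 477. Dsp_het 1 lay inside the control range for both, and Dsp_het 2 and 3 lay below it. Rsad2 means were 278 ± 24.6 and 283 ± 5.20, and Ifit1 means 60.5 ± 9.63 and 61.5 ± 15.1, closer together than their spread (SD, n = 3 each).

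**Figure D4:**
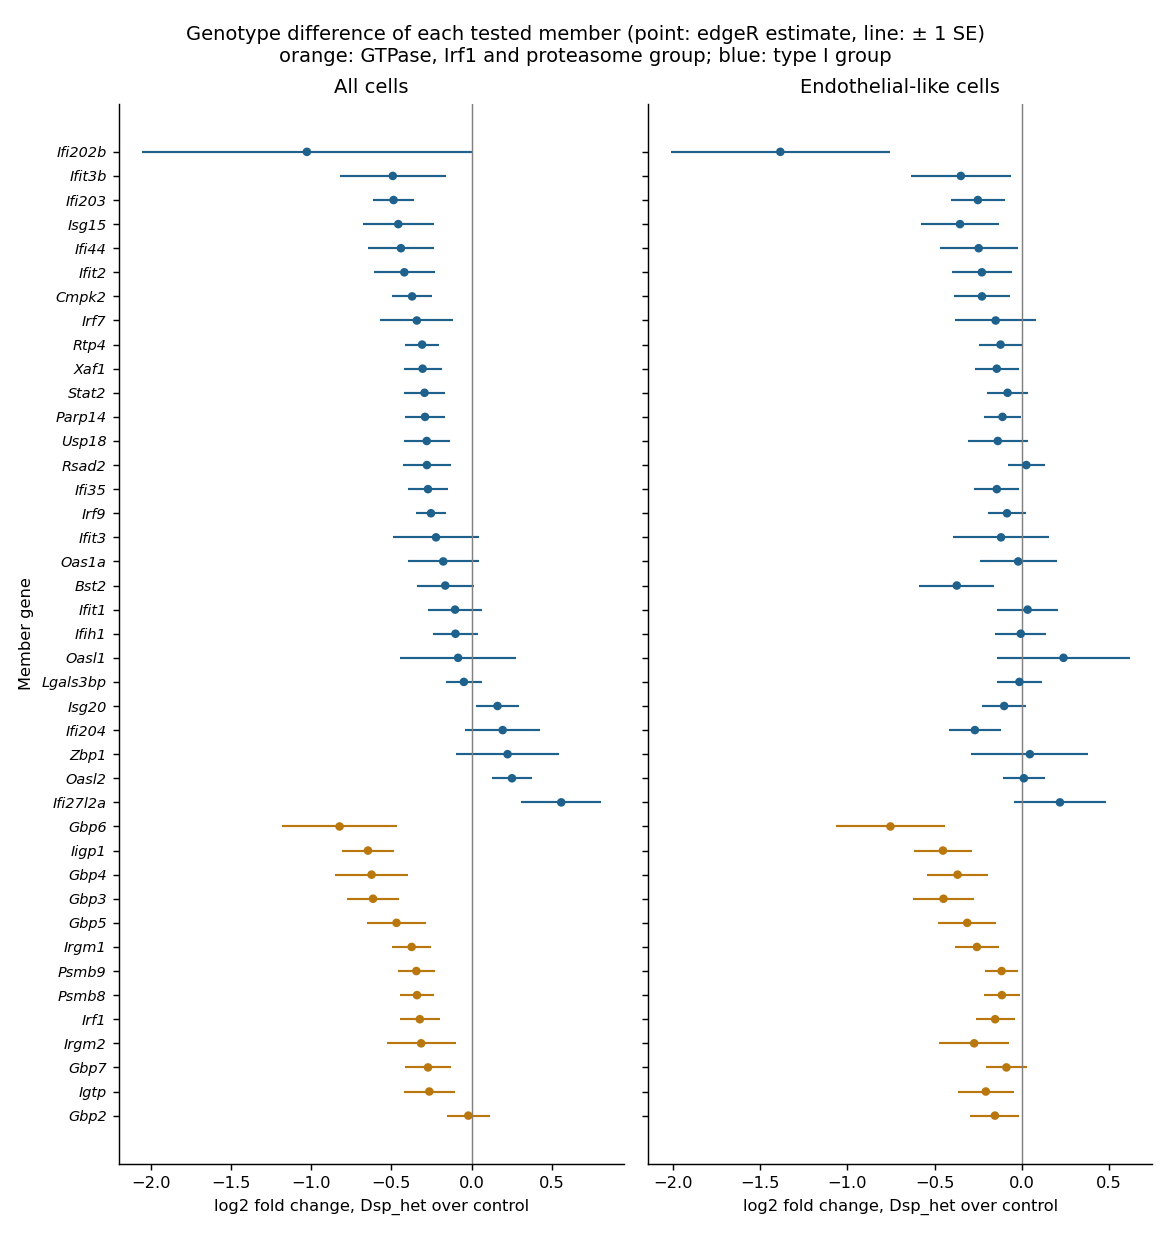
Log2 fold change, Dsp_het over control, of each tested member in the sum of all cells and in endothelial-like cells, with 1 standard error, from edgeR. Points lie mostly below 0, nearer to 0 in endothelial-like cells, and none passed the test at an adjusted p under 0.05.

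In the endothelial subtypes edgeR and DESeq2 called 0 members, against 0.0114% of all gene tests over the 9 clusters by edgeR. An unadjusted p under 0.05 was reached in 40 of 321 member tests and in 4.16% of all gene tests, and the clusters are parts of the same libraries. Negative fold changes were found for 28 of 35 members tested in cluster 0, 30 of 37 in the arterial-like cluster, 33 of 37 in cluster 3 and 26 of 34 in cluster 5, both capillary-like, and 12 of 31 in the venous-like cluster. They were found for 15 of 34 in cluster 4, 25 of 37 in cluster 6, 27 of 38 in cluster 8 and 23 of 38 in cluster 10, which makes 219 of 321 over all clusters. Iigp1 in cluster 3 was at 389, 435 and 207 CPM in the controls and 204, 204 and 168 in Dsp_het (-0.82, adjusted p = 0.213 by edgeR). The groups did not overlap there, which was so for 4.19% of all genes in the lower direction, though control 3 stood close to Dsp_het. Without control 3 the adjusted p was 0.00596.

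Fibroblast-like cells showed no common direction: 20 of 31 members tested had a positive fold change, with a median of 0.07, and without Dsp_het 1 these were 16 of 32. None was called by edgeR (0.012% of all genes) or DESeq2, and 2 had an unadjusted p under 0.05 (2.82% of all genes). Iigp1 was higher in each Dsp_het library, at 59.4, 63.3 and 31.1 CPM against 30.8, 30.2 and 19.2 (log2 fold change 1.00, SE 0.28), with the lowest Dsp_het library just above the highest control, as for 3.97% of all genes. Its adjusted p was 1.00 by edgeR. Tested directly against its change in endothelial-like cells, in 1 fit with library as block, the difference was -1.46 (SE 0.29, adjusted p = 0.302 by edgeR). None of 41 members passed that test between endothelial-like and fibroblast-like cells, nor between endothelial-like and epicardial-like cells, against 0.00823% and 0.0337% of all genes. In the former, 4 members had an unadjusted p under 0.05. There 1 member passed the adjusted test without control 1, among 4 of 12357 genes, and 2 did without Dsp_het 3, among 4 of 12322 genes. In the latter, 2 members had an unadjusted p under 0.05.

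Epicardial-like cells had negative fold changes for 25 of 36 members, with a median of -0.14. None was called by edgeR (0% of all genes) or DESeq2, and 1 had an unadjusted p under 0.05 (3.2% of all genes). Gbp5, which helps to assemble inflammasomes, was at 63.7, 28.1 and 27.3 CPM in the controls and 19.5, 19.8 and 21.2 in Dsp_het (-0.85), without overlap, as for 4.06% of all genes. Control 1 stood far above the others.

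**Figure D5:**
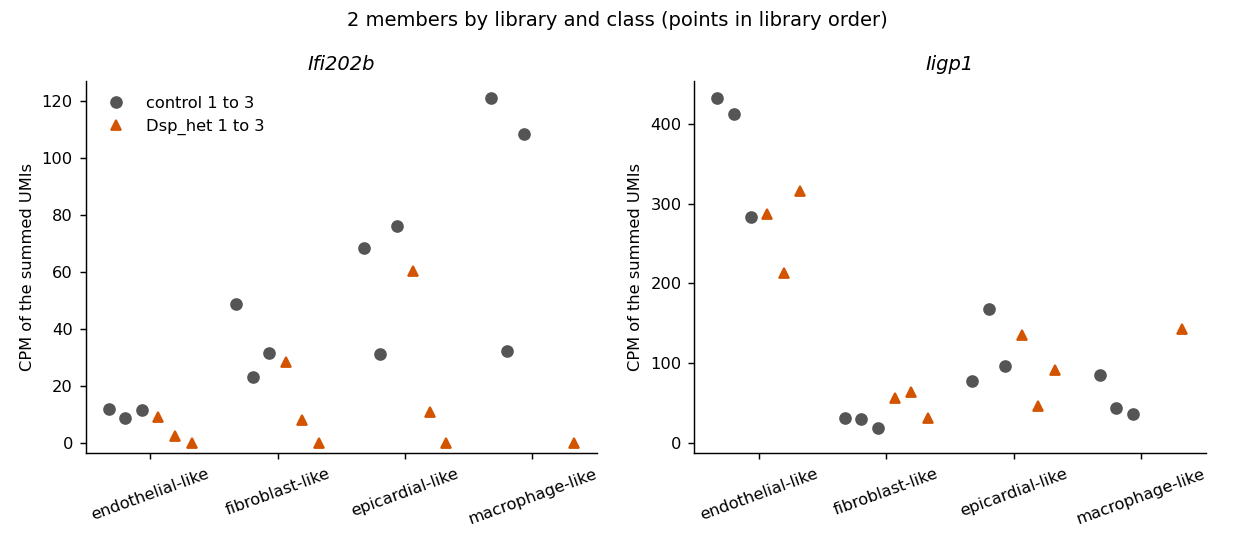
Level of Ifi202b and Iigp1 in CPM for each library and cell class. Ifi202b was at 0 in every class of Dsp_het 3, and Iigp1 was lower in Dsp_het than in most controls in endothelial-like cells and higher in fibroblast-like cells.

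Pericyte-like cells ran in the other direction, in 2 libraries a group (control 2 and 3, Dsp_het 1 and 3) with 29 and 102 cells against 23 and 25. No member was called by edgeR (0% of all genes) or DESeq2, and 14 of 33 tested had an unadjusted p under 0.05 (2.02% of all genes). Of these 33, 31 had a positive fold change, with a median of 0.82, and 21 were higher in both Dsp_het libraries than in both controls, against 13.6% of all genes. Leaving out Dsp_het 1 or Dsp_het 3 left 1 library in the group, whose spread is then assumed to be that of the controls. The log2 fold change of Rsad2 was 2.08 without Dsp_het 1 and 1.32 without Dsp_het 3. With all kept barcodes every library held at least 20 pericyte-like cells, 5 members were higher in all Dsp_het libraries than in all controls, and the median was 0.44. The share of all genes was not counted for that set. Rsad2 was at 98.3 and 146 CPM in the controls and 331 and 557 in Dsp_het (log2 fold change 1.84, adjusted p = 1.00 by edgeR), and Iigp1 at 98.3 and 147 against 331 and 255. These libraries also differed in other respects: fibroblast markers summed to 10947 and 7149 CPM against 35762 and 3320, endothelial markers to 17835 and 20237 against 12924 and 23616, and the median depth was 4485 and 6112 UMIs against 8703 and 11015. With the highest doublet scores left out, 9 of the 23 cells of Dsp_het 1 remained and 24 of the 25 of Dsp_het 3, so that no fit could be made. The part of these differences in the result was not tested. Macrophage-like cells could not be fitted, since only 1 Dsp_het library held 20 of them.

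Ifi202b, an Ifi200 family gene, gave no UMI in any class of Dsp_het 3. Its expression is known to differ between mouse strains, and the labels give C57BL/6 for all libraries. The strain of each library was not tested, and it bears on what a genotype difference in this gene means. Endothelial-like cells held 85, 38 and 95 UMIs in the controls and 59, 14 and 0 in Dsp_het, fibroblast-like cells 47, 15 and 42 against 123, 8 and 0, and epicardial-like cells 23, 11 and 80 against 117, 9 and 0. Scaled to CPM, Dsp_het 1 lay inside the control range in each of these classes and Dsp_het 2 below it, at 2.32 CPM in endothelial-like cells against 8.58 in the lowest control. The log2 fold change in endothelial-like cells was -1.38 (SE 0.63, adjusted p = 0.998 by edgeR), -0.89 without Dsp_het 3 and -3.03 without Dsp_het 1.

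The wider pathway had no called gene by genotype in these comparisons. In the sum of all cells, negative fold changes were found for 14 of 20 receptor and signalling genes (median -0.07), 11 of 18 sensors, 89 of 110 other induced genes (-0.17) and 13 of 17 antigen presentation genes (-0.18). In endothelial-like cells these were 11 of 18 receptor and signalling genes, 12 of 16 sensors (-0.09), 56 of 101 other induced genes (-0.04) and 8 of 17 antigen presentation genes (0.00).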

How the data were processed

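The authors deposited 1 matrix of raw UMI counts for 31055 genes and 18283 barcodes, with gene and barcode tables. Per the submitters' processing notes, the build was GRCm38 and Seurat was used. The sources used here name no aligner. Barcode suffixes were matched to the sample numbers in the labels. The members and gene lists were chosen with earlier results of these data known.

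Barcodes were kept with at least 500 UMIs, 200 genes and at most 20% mitochondrial UMIs, and occurrences of a barcode outside the library with most of its UMIs were left out. Scrublet called 35 cells (0.214%), which means it has not worked, and no cell was removed by it. An alternative left out the 245 highest scores. Cells were clustered in scanpy 1.11.5 (2000 variable genes, 30 components, 15 neighbours, Leiden resolution 1.5, seed 0) without the members and other interferon-induced genes. Clusters were named "-like" from marker lists. The resolution, the minimum score of 0.4 and the handling of ties and haemoglobin genes were chosen after clusters had been seen.

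Counts were summed per library and class, for libraries with at least 20 cells, and tested with edgeR 4.0.16 in R 4.3.3 (quasi-likelihood, TMM, minimum count 10, Benjamini-Hochberg over all genes), with DESeq2 1.42.0 as an alternative. The tests were tried on simulated data. Exact intervals are Clopper-Pearson at 95%. Class levels and responding shares got no test. Genes named with values are the members called in a comparison, the 12 of highest mean CPM in endothelial-like cells, Ifit1, Ifit3, Irf7, Gbp2, Igtp, Stat2 and Ifi204, the highest member of each class, core receptor genes, and the 10 leading genes outside the lists in responding cells. Isg20, Ifi202b, Ifi27l2a in the genotype comparison, Oasl2, Ifi44, Rtp4, Gbp3, Gbp5, Gbp6, Irgm1 and Irgm2 were picked after their values were seen. Some values of the wider pathway are not reported here.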

Additional observations from a re-analysis of the deposited data

Results flagged for a closer look

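For 4 members, every Dsp_het library lay on one side of the controls in one class and on the other side in pericyte-like cells, which had 2 libraries a group. The difference between classes was not tested for these pairs, and the share of all genes that lay apart in opposite directions was not counted. Taken 1 class at a time, 13.6% of all genes lay apart in the higher direction in pericyte-like cells. In the lower direction these were 4.07% in endothelial-like and 4.06% in epicardial-like cells. Irgm1 had a log2 fold change of -0.26 in endothelial-like and 0.15 in pericyte-like cells. Psmb8 had -0.11 and 0.53, and Psmb9 -0.12 and 0.093, in the same classes. Gbp5 had -0.85 in epicardial-like and 1.77 in pericyte-like cells.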

How the results depend on the processing

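Of 456 alternative values for 31 results, 435 kept their direction and their side of the threshold, or moved by less than the limits set for a value or a count. The difference in responding share, which had no test, changed sign without thinning, from -1.75 to 0.18 percentage points, and no other value changed sign. DESeq2 called 3 members in the sum of all cells (Iigp1, Ifi203 and Gbp3). With no filter on low counts, edgeR called 1 member in endothelial-like cells (Ifi202b), 2 in fibroblast-like, 1 in epicardial-like and 3 in pericyte-like cells, and 4 over the endothelial clusters, where the main values were 0. The share of all genes called without the filter is not given here, so these counts cannot be set against a background. The cause was not tested. With a minimum count of 30, 23.5% of the tested members were lower in fibroblast-like cells, against 35.5%. Leaving out each library in turn gave 0 to 8 called members in pericyte-like cells, 0 to 1 over the endothelial clusters (Iigp1 in cluster 3, without control 3) and 0 to 2 for the difference between endothelial-like and fibroblast-like cells. Some pericyte-like alternatives (the replicate block, the highest doublet scores left out, and leaving out control 1 or Dsp_het 2, which were not in that fit) gave no value of their own. The alternatives for class levels and the core genes without Rsad2 were chosen after seeing the data. The latter gave responding shares of 9.18% and 7.96%. Low counts limit Ifi202b and Mx1 (47 UMIs in all), and 3 libraries a group limit every genotype comparison.

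The replicate numbers did not pair the samples: same-numbered libraries had correlations of 0.02, -0.22 and -0.17 between their deviations over 3314 genes. Between control and Dsp_het libraries of different number the correlations ran from -0.06 to 0.30, the highest for control 2 and Dsp_het 3. With the replicate number as a block, 0 members were called, and 87.8% of members were lower in all cells, 85.4% in endothelial-like, 35.5% in fibroblast-like and 77.8% in epicardial-like cells, and 66.7% over the endothelial clusters. Iigp1 in all cells then had a log2 fold change of -0.63 (adjusted p = 0.344 by edgeR).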

Other observations

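Genes lower in responding than in other endothelial-like cells of every library included Vwf, the clotting protein of venous and large-vessel endothelium (0.327 of the level in other cells), the growth factor-binding protein Igfbp5 (0.381), the matrix protein Dcn (0.485) and the immediate-early factor Fos (0.583). They were named after their values were seen. The comparison pooled all endothelial clusters, and Vwf, Igfbp5 and Dcn were leading genes of cluster 12, where 2.58% of cells responded. The part of the mix of clusters in these ratios was not tested. The interferon-led cluster from clustering with all genes held 69 cells of the capillary-like cluster 5, 65 of cluster 4, 61 of cluster 10, 51 each of clusters 0 and 3, 33 of cluster 6, 22 of cluster 8 and 4 of the arterial-like cluster 2, and the rest lay in unnamed clusters.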
